A study of Homo sapiens with 12 samples.

Results

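The genes described here encode 8 subunits of ion channels and gap junctions. These are SCN4B of the sodium channel, CACNA1C, CACNB2 and CACNA2D1 of the L-type calcium channel, and the connexins GJA1, GJA5, GJC1 and GJA4. They were chosen by gene symbol, with no measured value in the rule but with earlier results of these data known. They are 8 of the 61806 genes in the table. Bulk RNA-seq was carried out on the wild-type line H1, which was derived from a human embryo and is pluripotent, after it had been directed to mesendoderm, the precursor of heart and gut lineages. Differentiating cells were collected at Day 12 and at Day 16, with 2 libraries per group in 6 groups and 12 in all.

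At the start of differentiation all groups received the WNT activator CHIR99021, and insulin on the day after. NP-IWP2 cells were not passaged and received IWP2, which blocks secretion of WNT ligands, from Day 2. By the paper's methods IWP2 was given only for the first days after that and not until collection. P-DF cells, titled Pass-ctrl in the labels, were passaged on Day 2 and then kept in DF medium with no IWP2. In the group P-IWP2, passaging on Day 2 was combined with IWP2. The methods give the ROCK inhibitor Y27632 and insulin as optional at passaging. The paper's results state that Y27632 was used in all differentiation experiments after its first tests, and the labels do not name it for these libraries. Where either agent was given only at passaging, it cannot be told apart from passaging. P-DF cells differ from NP-IWP2 cells both in passaging and in IWP2, and no static group without IWP2 is analysed here. The question was how passaging bears on the cardiac program of cells that otherwise depend on WNT inhibition. The labels do not say whether the libraries of a group came from separate cultures, so p-values measure the spread between these libraries, which may be technical.

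In working cardiomyocytes the upstroke of the action potential is carried by the sodium channel, and β subunits such as that of SCN4B sit beside the pore and tune its gating. The L-type calcium channel carries the plateau current that triggers contraction. CACNA1C encodes its pore, CACNB2 the intracellular β subunit that brings the pore to the membrane, and CACNA2D1 the extracellular α2δ subunit. Connexins form the gap junctions that pass current from cell to cell. GJA1 (connexin 43) is the main connexin of ventricular muscle and is also made by fibroblasts and smooth muscle, GJA5 (connexin 40) marks atrial and conduction tissue and arterial endothelium, GJC1 (connexin 45) is the connexin of early heart and nodes, and GJA4 (connexin 37) is a connexin of arterial endothelium.

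The genes lie on 7 chromosomes (GRCh38): SCN4B on chr11:118133377-118152888, CACNA1C on chr12:1970772-2697950, CACNB2 on chr10:18140424-18543557, CACNA2D1 on chr7:81946444-82443777, GJA1 on chr6:121435595-121449727, GJA5 on chr1:147756199-147773362, GJC1 on chr17:44798448-44830816 and GJA4 on chr1:34792999-34795747. CACNA1C, CACNB2, CACNA2D1, GJA5 and GJA4 each overlap other annotated genes, most of them antisense RNA genes, and CACNA1C also overlaps DCP1B. Whether the authors' counting used strand is not given in the sources used here, so reads of such a pair may not be separable. RefSeq promoter windows, 250 bases before and 50 after a start site (GRCh38.p14), were matched for 6 of the 8 genes, and GJA4 and GJC1 had none. Shown are the upstream bases of 3 genes called in passaged against static cells, GJA1 and GJA5 as genes that fell and CACNA2D1 as a gene that rose. They are given 5′ to 3′ on the strand of the gene, at chr6:121435396-121435609 (plus strand), chr7:82443957-82444206 (minus strand) and chr1:147773352-147773601 (minus strand), with matched motifs in capitals. The GJA1 run stops at base -37 before the RefSeq start, and the 36 bases after it are not shown. Those 36 bases and the last 15 bases shown lie inside the deposited span of GJA1. The last 11 bases of the GJA5 run likewise lie inside the span of GJA5, and the GJA5 and CACNA2D1 runs reach base -1.
GJA1: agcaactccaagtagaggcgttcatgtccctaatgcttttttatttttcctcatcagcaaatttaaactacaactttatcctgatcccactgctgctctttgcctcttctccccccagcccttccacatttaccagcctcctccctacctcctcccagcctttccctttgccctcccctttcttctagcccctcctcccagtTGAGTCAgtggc
CACNA2D1: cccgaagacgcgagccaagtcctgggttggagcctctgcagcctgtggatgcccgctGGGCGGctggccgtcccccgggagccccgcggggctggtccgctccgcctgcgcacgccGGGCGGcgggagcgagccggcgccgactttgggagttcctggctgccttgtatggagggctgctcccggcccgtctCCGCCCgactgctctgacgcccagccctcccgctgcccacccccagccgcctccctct
GJA5: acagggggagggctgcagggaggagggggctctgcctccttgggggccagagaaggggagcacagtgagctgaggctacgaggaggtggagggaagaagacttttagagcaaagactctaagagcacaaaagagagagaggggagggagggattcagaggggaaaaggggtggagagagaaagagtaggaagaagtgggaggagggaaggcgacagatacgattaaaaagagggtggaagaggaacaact
The motifs searched on both strands were the core letters GGTGTG of T-box factors, CACTTAA of NKX2-5, AGATAA of GATA factors, TGANTCA of AP-1, GGGCGG of the GC box and TATAAA of the TATA box, where N is any base. The GJA1 window held 1 AP-1 match, TGAGTCA, from base -48 to -42 before the RefSeq start, inside the deposited span of the gene. The CACNA2D1 window held 3 GC boxes and the GJA5 window held none of the motifs. Of 34943 windows of the same length, 7.72% held the AP-1 letters, 44.9% the GC box, 16.8% the T-box core, 2.45% the NKX2-5 core, 10.4% the GATA letters and 11.6% the TATA box. These matches describe letters and are not binding sites.

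The counts of a library summed to 14885589 to 19176239, so that a gene with no read could hold up to 0.156 to 0.202 CPM (counts scaled by the library total, from 3 counts). This limit and the intervals below cover counting error only. Values between genes are compared in FPKM, reads scaled by exon length and by the library total. All 10 cardiomyocyte markers were at 1 FPKM or more in every library, and their sum was 3347 to 5748 FPKM in NP-IWP2 and 5312 to 10548 in the passaged libraries other than the Day 12 library P-IWP2 replicate 5. The sum of 8 fibroblast markers was 704 to 1282 FPKM in NP-IWP2 and 24.9 to 44.1 in those 7 passaged libraries, with DCN, TCF21 and LUM below 1 FPKM in each of the 7. The library P-IWP2 Day 12 replicate 5 stood apart, with 2359 FPKM of cardiomyocyte markers and 720 of fibroblast markers. In the same order, epicardial markers summed to 37.8 to 78.1, 0.3 to 0.82 and 119 FPKM, hepatic markers to 368 to 755, 5.71 to 20.1 and 7.88, and smooth muscle markers to 143 to 433, 200 to 895 and 173. The numbers of these markers called lower in P-DF and P-IWP2 cells on Day 12 and in P-DF and P-IWP2 cells on Day 16 were 5, 3, 7 and 7 of 8 fibroblast, 2, 1, 5 and 5 of 5 epicardial and 5, 4, 5 and 5 of 5 hepatic genes. Of the 10 cardiomyocyte markers 5 rose and 1 fell in P-DF and 4 rose and 1 fell in P-IWP2 on Day 16, with none called on Day 12, and of the 4 smooth muscle markers 1 fell in P-DF and 1 rose in P-IWP2 on Day 16. In bulk RNA, fewer cells of a type and less RNA per cell cannot be told apart.

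All 8 genes passed the filter on low counts, GJA4 only through NP-IWP2 cells on Day 12 and SCN4B only through NP-IWP2 cells. The passing of these 2 was thus set by the group in which they were high, and a call against that group could only be a fall. A gene is called below when edgeR's quasi-likelihood test, fitted to 19505 genes, gave a Benjamini-Hochberg adjusted p under 0.05. On Day 12, GJA1 and GJA4 fell in P-DF cells and no member rose, where 4.01% of all genes were called (0.697% higher, 3.32% lower). GJA1 and GJA4 were also called lower in P-IWP2 cells on Day 12, where 1.66% of all genes were called (0.328% higher, 1.33% lower). On Day 16, CACNA2D1 rose and SCN4B fell in P-DF cells, where 15.3% of all genes were called (5.39% higher, 9.86% lower). On Day 16 in P-IWP2 cells CACNA2D1 rose and SCN4B, GJA1 and GJA5 fell, where 17.1% of all genes were called (7.15% higher, 9.95% lower). P-DF and P-IWP2 were compared with the same static libraries. The median log2 fold change (log2FC) of the 8 genes was -0.12, -0.17, -0.23 and -0.19 in these comparisons (P-DF Day 12, P-IWP2 Day 12, P-DF Day 16, P-IWP2 Day 16), beside medians of -0.03 to 0.01 over all genes.

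**Figure D1:**
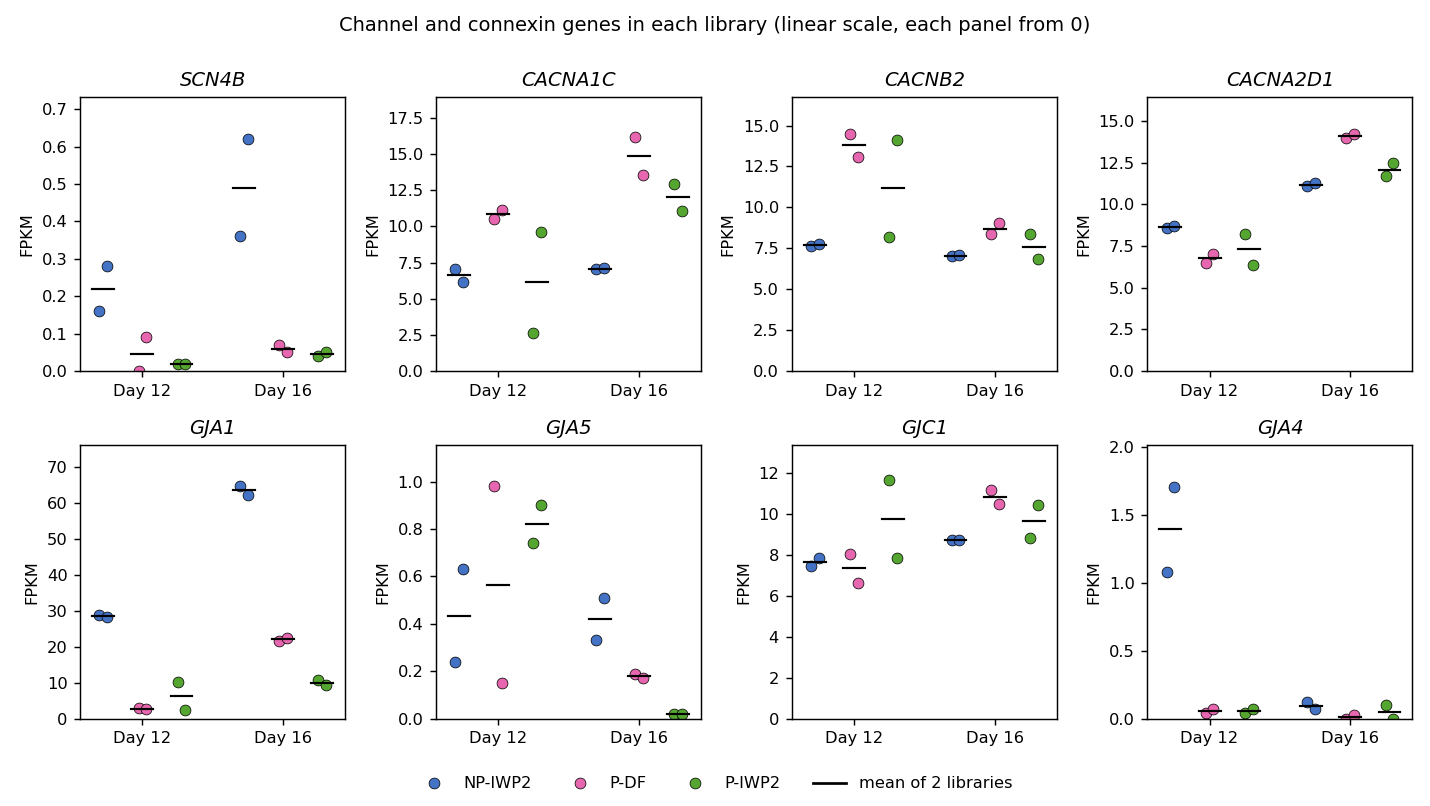
FPKM of each gene in each of the 12 libraries by group and day, with points for libraries and bars for the mean of 2. GJA1 was highest in NP-IWP2 on both days, CACNA1C in P-DF cells on Day 16 (13.54 and 16.14 FPKM), and the 2 points of P-IWP2 Day 12 lay far apart for CACNA1C, CACNB2 and GJA1.

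The 2 libraries of P-IWP2 Day 12 differed more from each other than the pair of any other group, with a chi-square per gene of 137 against 3.79 to 30.2, and more genes were called without either of them in the comparisons with static cells. Without replicate 5, 21.9% of 20518 genes and 4 of the 8 members were called in P-DF on Day 12, 32.4% and 6 members on Day 16, 15% and 4 members in P-IWP2 on Day 12 and 34.8% and 7 members on Day 16. Without replicate 6 in place of replicate 5, 4, 6, 3 and 7 members were called, beside 21.5%, 31.9%, 14.3% and 34.2% of 20858 genes. In both cases the group left with 1 library adds no spread to the shared estimate and is assumed to vary like the others. Leaving out any of the other libraries of a comparison had the opposite effect on many calls, and the number of the 12 such fits in which a call was lost is given with each gene.

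**Figure D2:**
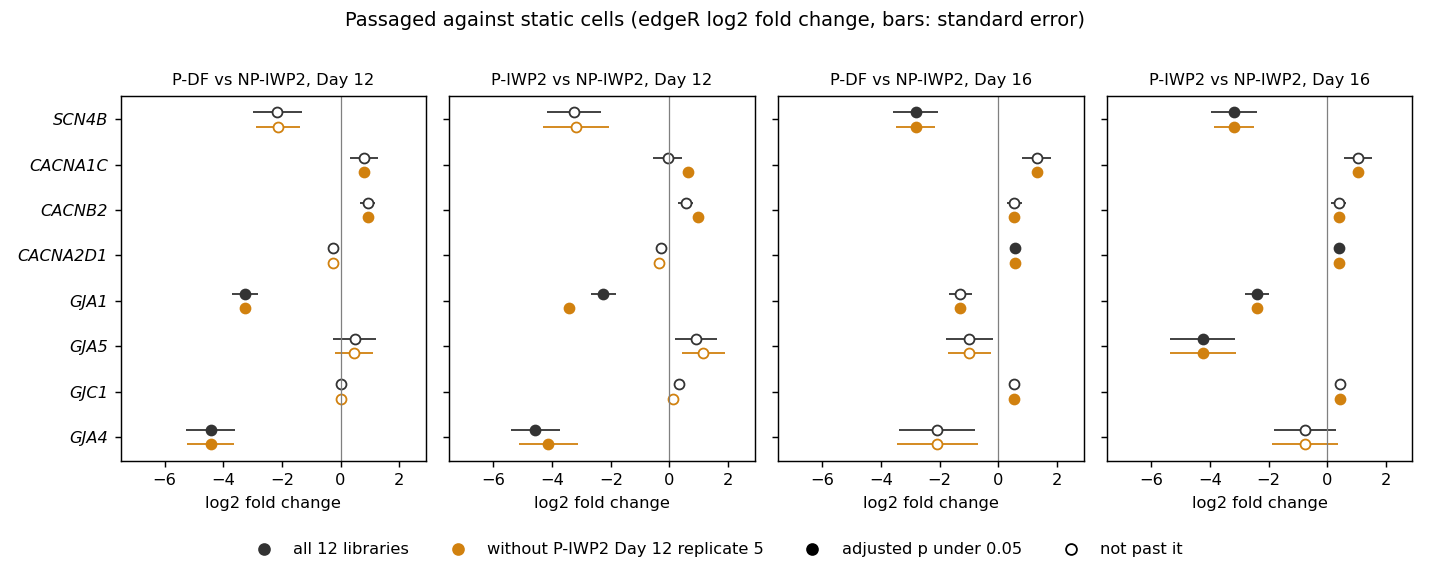
log2FC of the 8 genes in passaged against static cells (edgeR, bars for the SE) with all 12 libraries and without P-IWP2 Day 12 replicate 5, filled where the adjusted p was under 0.05. GJA1 lay left of 0 in all 4 comparisons, and CACNA2D1 moved from -0.27 and -0.28 on Day 12 to 0.57 and 0.39 on Day 16.

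SCN4B, the sodium channel β4 subunit, was the lowest of the sodium and calcium channel genes, and its few reads came mainly from static cells. On Day 12, its counts were 16 and 26 in NP-IWP2, 0 and 8 in P-DF and 2 and 2 in P-IWP2. By Day 16 they were 39 and 56 in NP-IWP2, 6 and 5 in P-DF and 4 and 5 in P-IWP2. Every static library thus held more SCN4B reads than every passaged library, and 0.62 FPKM was the highest level reached. SCN4B passed the filter only through static cells, so a call against them could only be a fall. On Day 16 SCN4B fell by 2.82 on the log2 scale in P-DF cells (SE 0.768, edgeR's adjusted p = 0.0382), and its log2FC was -3.19 in P-IWP2 cells (SE 0.789, adjusted p = 0.0252). From the summed counts, SCN4B was 8.38-fold higher in NP-IWP2 than in P-DF (exact 95% interval 4.48 to 17.4) and 11.2-fold higher than in P-IWP2 (5.65 to 25.2). The Day 12 log2FC of -2.15 (SE 0.826) and -3.25 (SE 0.916) were not called by edgeR, with adjusted p of 0.175 and 0.149. For P-DF on Day 12 the value ran from -7.26 without replicate 4 to -1.24 without replicate 3, the libraries with 8 reads and 0 reads. Without replicate 5, the adjusted p from edgeR on Day 16 were 0.005 and 0.00268, and those on Day 12 were 0.0587 and 0.0752, still not called. The Day 16 calls of SCN4B were lost in 8 and 4 of 12 fits that each left out 1 library, with adjusted p up to 0.224 without P-DF replicate 4 and up to 0.152 without NP-IWP2 replicate 2 of Day 16.

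Of 12 other sodium channel subunits examined, 10 were tested. On Day 16 SCN4A rose and SCN2A and SCN7A fell in P-DF cells, and the test called these 3 genes in the same directions in P-IWP2 cells. None of the 10 was called on Day 12 in edgeR's test with all libraries, and 3 were in each passaged group without replicate 5. The Day 16 median log2FC of the list was -0.45 for P-DF and -0.50 for P-IWP2. SCN7A, a sodium channel that senses extracellular sodium in glia and other non-excitable cells, averaged 7.88 ± 3.54 FPKM in NP-IWP2 cells on Day 16 (SD, n = 2) and 0.03 in both P-DF libraries, and it is listed at 0 in both P-IWP2 libraries. Its adjusted p from edgeR was 0.0188 for P-DF and 0.0123 for P-IWP2. Without replicate 5 of Day 12, 4 and 6 subunits of this list were called on Day 16 in P-DF and P-IWP2 cells.

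CACNA1C, the pore of the L-type channel, was higher in passaged than in static libraries on Day 16. It measured 7.02 and 7.11 FPKM in NP-IWP2, 16.14 and 13.54 in P-DF and 12.92 and 11.07 in P-IWP2, without overlap of static and passaged libraries. The log2FC of 1.30 (SE 0.488) and 1.04 (SE 0.485) were not called by edgeR with all 12 libraries, with adjusted p of 0.103 and 0.168, and were called without replicate 5 of Day 12 (2.56e-06 and 1.82e-05). On Day 12 it measured 7.08 and 6.17 FPKM in NP-IWP2 and 10.48 and 11.15 in P-DF. In P-IWP2 on Day 12 it was 2.64 in replicate 5 and 9.61 in replicate 6, below and above every static library. Its Day 12 log2FC in P-IWP2 cells was -0.07 with both libraries (SE 0.481, edgeR's adjusted p = 0.985), 0.63 without replicate 5 (adjusted p = 0.008) and -1.47 without replicate 6. In P-DF cells on Day 12 it was 0.79 (SE 0.483, adjusted p = 0.372), and edgeR called it without replicate 5 (adjusted p = 0.000282).

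Over the 6 groups, CACNA1C was highest in P-DF cells on Day 16, at 14.8 ± 1.84 FPKM (SD, n = 2 here and below), followed by P-IWP2 Day 16 at 12.0 ± 1.31 and P-DF Day 12 at 10.8 ± 0.474. The libraries of the last 2 groups overlapped. NP-IWP2 followed with 7.07 ± 0.0636 on Day 16 and 6.63 ± 0.644 on Day 12, then P-IWP2 Day 12 with 6.13 ± 4.93, and these 3 overlapped in turn.

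CACNB2, the β subunit, had its highest levels in passaged cells on Day 12. It measured 7.63 and 7.79 FPKM in NP-IWP2, 14.49 and 13.09 in P-DF, and 8.22 in replicate 5 and 14.10 in replicate 6 of P-IWP2. By Day 16 it measured 7.03 and 7.07 in NP-IWP2, 8.37 and 9.02 in P-DF and 8.39 and 6.82 in P-IWP2, and the P-IWP2 libraries lay on both sides of the static ones. With all 12 libraries edgeR called none of its differences from static cells. In P-DF cells the log2FC was 0.93 on Day 12 (SE 0.257, adjusted p = 0.0785) and 0.53 on Day 16 (SE 0.256, adjusted p = 0.188), and in P-IWP2 cells 0.55 (SE 0.256, adjusted p = 0.468) and 0.38 (SE 0.256, adjusted p = 0.329). Without replicate 5, edgeR called all 4 with adjusted p of 3.56e-05, 0.00171, 0.000173 and 0.0132.

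CACNA2D1, the α2δ subunit, was the one member that edgeR called higher in passaged cells on Day 16 with all 12 libraries. The log2FC of CACNA1C there were larger and were not called. CACNA2D1 measured 11.08 and 11.27 FPKM in NP-IWP2, 13.97 and 14.22 in P-DF and 11.72 and 12.47 in P-IWP2, and the libraries of the 3 groups did not overlap. The rise was 0.57 on the log2 scale in P-DF (SE 0.108, edgeR's adjusted p = 0.00965) and 0.39 in P-IWP2 cells (SE 0.108, adjusted p = 0.0362), and without replicate 5 of Day 12 the adjusted p were 0.000641 and 0.00702. On Day 12 the order was the opposite, with 8.59 and 8.73 FPKM in NP-IWP2, 6.50 and 7.04 in P-DF and 8.24 and 6.36 in P-IWP2. Every passaged library was below both static ones then, and the log2FC of -0.27 (SE 0.108) and -0.28 (SE 0.108) were not called by edgeR (adjusted p = 0.196 and 0.346). The Day 16 calls of CACNA2D1 were lost in 4 and 9 of 12 fits that each left out 1 library, with adjusted p up to 0.0919 and 0.223, both without NP-IWP2 replicate 2 of Day 16. They were also lost when libraries were scaled by total counts, which put the median of all genes at -0.25 for P-DF and -0.31 for P-IWP2 (CACNA2D1 log2FC 0.33 and 0.11, edgeR's adjusted p = 0.0941 and 0.541).

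Of 20 other voltage-gated calcium channel subunits, 16 were tested. On Day 16, 3 rose and 6 fell in P-DF cells, and 3 rose and 5 fell in P-IWP2 cells, with median log2FC of -1.31 and -0.81. CACNA1B, the pore of the neuronal N-type channel, averaged 0.345 ± 0.0495 FPKM in NP-IWP2, 1.14 ± 0.0071 after passaging without IWP2 and, in P-IWP2, 2.58 ± 0.601, with log2FC of 1.94 (SE 0.255, edgeR's adjusted p = 0.00189) and 3.18 (SE 0.262, adjusted p = 0.000244). CACNB1, the β subunit of skeletal muscle, rose by 1.07 (SE 0.208, adjusted p = 0.0105) and 0.81 (SE 0.208, adjusted p = 0.0286) in edgeR's test. The pores went in both directions. CACNA1D, the L-type pore of sinoatrial cells, averaged 3.27 ± 0.707, 0.85 ± 0.0141 and 0.51 ± 0.184 FPKM in the same order with log2FC of -1.70 (SE 0.243, adjusted p = 0.00287) and -2.40 (SE 0.251, adjusted p = 0.0006) in edgeR's test. The T-type pore CACNA1G averaged 4.94 ± 1.68, 0.62 ± 0.0707 and 0.17 ± 0.099 FPKM with log2FC of -2.75 (SE 0.724, adjusted p = 0.0337) and -4.61 (SE 0.814, adjusted p = 0.00667) in edgeR's test. CACNA1H, another T-type pore, averaged 6.75 ± 0.997, 9.77 ± 0.573 and 8.20 ± 2.06 FPKM on Day 16. Its log2FC of 0.77 (SE 0.263) and 0.55 (SE 0.263) were not called by edgeR (adjusted p = 0.0787 and 0.173), and both were called without replicate 5 of Day 12 (adjusted p = 0.000901 and 0.00751).

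CACNA1D stood above CACNA1C in FPKM in both static Day 12 libraries (7.70 and 7.63 against 7.08 and 6.17) and in P-IWP2 replicate 5 (9.69 against 2.64), and below it in the other 9 libraries. On Day 16 the FPKM of CACNA1D in P-DF and P-IWP2 cells were all below those of NP-IWP2, while those of CACNA1C were all above. On Day 12 CACNA1D averaged 7.67 ± 0.0495 in NP-IWP2 cells, 5.16 ± 0.969 after passaging without IWP2 and, in P-IWP2, 7.77 ± 2.72, and 2 subunits (CACNA1A and CACNG4) fell in P-DF and 1 (CACNA1A) in P-IWP2 cells. Without replicate 5, 11 and 10 of the 16 were called on Day 16 in P-DF and P-IWP2 cells.

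**Figure D3:**
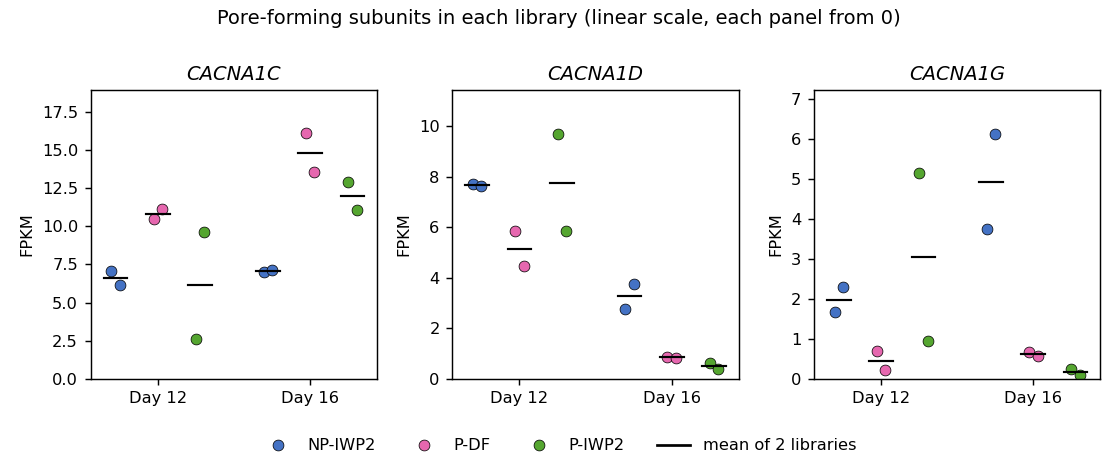
FPKM of 3 pore-forming calcium channel subunits in each library by group and day, with points for libraries and bars for the mean of 2. On Day 16 CACNA1C was higher and CACNA1D and CACNA1G lower in all 4 passaged libraries than in both static ones.

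GJA1 (connexin 43) was the most abundant of the 8 transcripts in static cells and was lower in every passaged library of the same day. On Day 12 it measured 28.74 and 28.34 FPKM in NP-IWP2, 2.83 and 2.75 in P-DF, and 10.15 in replicate 5 and 2.48 in replicate 6 of P-IWP2. By Day 16 it measured 64.56 and 62.25 FPKM in NP-IWP2, 21.66 and 22.35 in P-DF and 10.70 and 9.23 in P-IWP2. No passaged library reached the static ones of its day, and replicate 5 lay nearer to them than replicate 6. On Day 12 GJA1 fell by 3.27 on the log2 scale in P-DF cells (SE 0.446, edgeR's adjusted p = 0.00672) and by 2.26 in P-IWP2 cells (SE 0.422, adjusted p = 0.0324). Leaving out replicate 5 gave -3.44 for P-IWP2, and leaving out replicate 6 gave -1.64. On Day 16 GJA1 fell by 2.40 in P-IWP2 cells (SE 0.419, edgeR's adjusted p = 0.00641), and the log2FC of -1.30 in P-DF cells (SE 0.403) was not called (adjusted p = 0.0585). Without replicate 5, all 4 differences were called by edgeR, with adjusted p from 1.2e-09 on Day 12 to 3.79e-07 on Day 16 in P-DF and of 3.24e-08 and 2.73e-09 in P-IWP2 cells. Of the 12 fits that each left out 1 library, the Day 12 call was lost in 2 for P-DF (adjusted p up to 0.0999) and in 10 for P-IWP2 cells (up to 0.192 without NP-IWP2 replicate 1 of Day 12), all but those without replicate 5 or 6 of P-IWP2 Day 12, and the Day 16 call in P-IWP2 in 1, without its replicate 6 (0.0627).

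The fibroblast marker sum moved with GJA1 between passaged and static cells. It was 721 and 704 FPKM in NP-IWP2 on Day 12, 30.1 and 24.9 in P-DF, 720 in replicate 5 and 35.3 in replicate 6 of P-IWP2. On Day 16 it was 1282 and 1259 in NP-IWP2, 44.1 and 40.0 in P-DF and 44.1 and 40.7 in P-IWP2. Between Day 12 and Day 16 the P-DF sum thus rose but stayed under 45 FPKM, while GJA1 went from 2.83 and 2.75 to 21.66 and 22.35. Over this time in P-DF, edgeR called 1 of the 8 markers higher and 0 lower, with a median log2FC of 0.26. MFAP4 went from 1.79 and 1.91 to 18.47 and 19.62 FPKM there. In replicate 5, COL3A1 and COL1A1 made up most of the sum with 457 and 176 FPKM, against 401 and 383 (COL3A1) and 177 and 198 (COL1A1) in NP-IWP2 on Day 12. Its LUM and DCN were at 0.55 and 0.26 FPKM, below the 97.59 and 73.18 (LUM) and 4.10 and 2.65 (DCN) of those static libraries, while TCF21 was above them at 21.26 against 2.41 and 3.92. The part of fibroblast RNA in the GJA1 level was not tested.

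**Figure D4:**
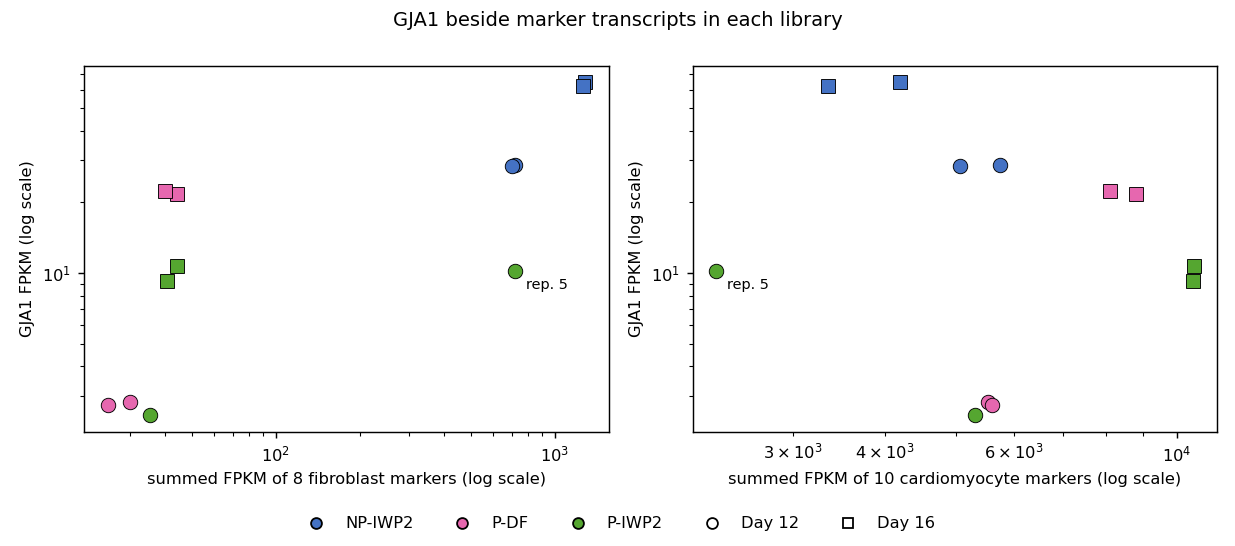
GJA1 FPKM in each library against the summed FPKM of 8 fibroblast markers (left) and of 10 cardiomyocyte markers (right), all axes on a log scale, with circles for Day 12 and squares for Day 16. The 4 NP-IWP2 libraries are at the upper right of the left panel, P-IWP2 replicate 5 of Day 12 lies below them with a sum of 720 FPKM, mostly COL3A1 and COL1A1, and 10.15 FPKM of GJA1, and P-DF on Day 16 reached 21.66 and 22.35 FPKM of GJA1 with fibroblast sums of 44.1 and 40.0.

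GJC1 (connexin 45) kept the narrowest range of the 4 connexins in proportion to its level, from 6.64 to 11.65 FPKM over the 12 libraries. On Day 12 it measured 7.45 and 7.84 FPKM in NP-IWP2, 8.04 and 6.64 in P-DF and 11.65 and 7.85 in P-IWP2. On Day 16 both static libraries were at 8.71, with 11.18 and 10.48 in P-DF and 8.85 and 10.42 in P-IWP2, all above them. With all libraries edgeR called none of these, the nearest being 0.54 in P-DF on Day 16 (SE 0.162, adjusted p = 0.0516) and 0.43 in P-IWP2 on Day 16 (SE 0.162, adjusted p = 0.0996). Without replicate 5 of Day 12 both were called by edgeR (adjusted p = 0.00557 and 0.0202).

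GJA5 (connexin 40) was low throughout, at most 0.98 FPKM, and was almost without reads in P-IWP2 cells on Day 16. Its counts on Day 12 were 14 and 34 in NP-IWP2, 48 and 8 in P-DF and 38 and 49 in P-IWP2. On Day 16 they were 21 and 27, 10 and 10, and 1 and 1 in the same order, and the 3 groups did not overlap. In P-IWP2 cells on Day 16 GJA5 fell by 4.25 against static cells (SE 1.12, edgeR's adjusted p = 0.0311, and 0.0104 without replicate 5 of Day 12). From the summed counts, static cells had 25.4-fold more GJA5 (exact 95% interval 6.67 to 216). The call was lost in 6 of 12 fits that each left out 1 library, with adjusted p up to 0.159 without P-IWP2 replicate 6 of Day 16. The other differences were not called, with log2FC of 0.48 (SE 0.725, adjusted p = 0.736 from edgeR) and 0.92 (SE 0.712, adjusted p = 0.736) on Day 12 and -0.99 in P-DF on Day 16 (SE 0.790, adjusted p = 0.428). The P-DF libraries of Day 12 differed from each other by more than the groups did.

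GJA4 (connexin 37) was found mainly in static cells on Day 12. It passed the filter only through those cells, so a call against them could only be a fall. Its counts there were 33 and 48, against 1 and 2 in P-DF and 1 and 2 in P-IWP2. On Day 16 they were 4 and 2, 0 and 1, and 3 and 0, at or near the limit of 3 counts in every group. Static cells had 24.3-fold more GJA4 than P-DF on Day 12 (exact 95% interval 8.04 to 120) and 25.4-fold more than P-IWP2 (8.38 to 126). The Day 12 log2FC were -4.43 (SE 0.841, edgeR's adjusted p = 0.0256) and -4.57 (SE 0.838, adjusted p = 0.0304), and without replicate 5 the adjusted p were 0.00125 and 0.0132. These calls were lost in 6 and 8 of 12 fits that each left out 1 library, with adjusted p up to 0.201 without P-DF replicate 4 and up to 0.275 without NP-IWP2 replicate 2 of Day 12. On Day 16 edgeR called neither P-DF (adjusted p = 0.306) nor P-IWP2 (adjusted p = 0.656).

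All 8 endothelial markers were at 1 FPKM or more in NP-IWP2 on Day 12, where GJA4 was highest, for example CDH5 (VE-cadherin) at 4.73 and 6.05 and PECAM1 at 1.84 and 2.50. By Day 16 CDH5 was 0.14 and 0.29 and PECAM1 0.20 and 0.11 in NP-IWP2, with 2 of the 8 markers, KDR and TEK, still at 1 FPKM or more and TEK at 10.28 and 10.05, against 11.48 and 10.87 on Day 12. In the 7 passaged libraries other than replicate 5, only KDR, which cardiac progenitors also express, was at 1 FPKM or more. The sum of the 8 was 185 to 203 FPKM in NP-IWP2 on Day 12 and 50.1 to 50.2 on Day 16, and 10.1 to 233 in the 7 passaged libraries, most of it KDR. EMCN was listed at 0 in both P-DF libraries of Day 12 and PECAM1 in both P-IWP2 libraries of Day 16. Of the 8, edgeR called 5 lower in P-DF and none in P-IWP2 on Day 12 and 1 lower in each on Day 16. Between the days in NP-IWP2, where GJA4 fell, edgeR called none of the 8 with all libraries and 7 lower without replicate 5. The median log2FC of the 8 markers was -4.00 over time in NP-IWP2. In P-IWP2 on Day 12 it was -2.08 with both libraries and -6.22 without replicate 5. Replicate 5 held 7 of the 8 at 1 FPKM or more, with CDH5 at 2.60 and PECAM1 at 1.18, and had 1 GJA4 read. The part of endothelial RNA in the GJA4 level was not tested.

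The make-up of the 4 connexins differed between static and passaged cells. GJA1 was 76.6% and 73.6% of their summed FPKM in NP-IWP2 on Day 12, 23.8% and 28.6% in P-DF, and 45.0% in replicate 5 and 21.9% in replicate 6 of P-IWP2. GJC1 made up most of the rest, with 19.9% and 20.4%, 67.6% and 69.1%, and 51.6% and 69.5% in the same order. On Day 16 GJA1 was 87.6% and 87.0% in NP-IWP2, 65.6% and 67.7% in P-DF and 54.4% and 46.9% in P-IWP2. Thus GJC1 was the leading connexin of the 4 in every passaged Day 12 library and in 1 of 4 passaged Day 16 libraries, and in no static library. Summed FPKM was 37.5 and 38.5 in NP-IWP2, 11.9 and 9.61 in P-DF and 22.6 and 11.3 in P-IWP2 on Day 12, and 73.7 and 71.5, 33.0 in both, and 19.7 in both on Day 16. Shares say nothing of the amount of protein or of junctions.

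**Figure D5:**
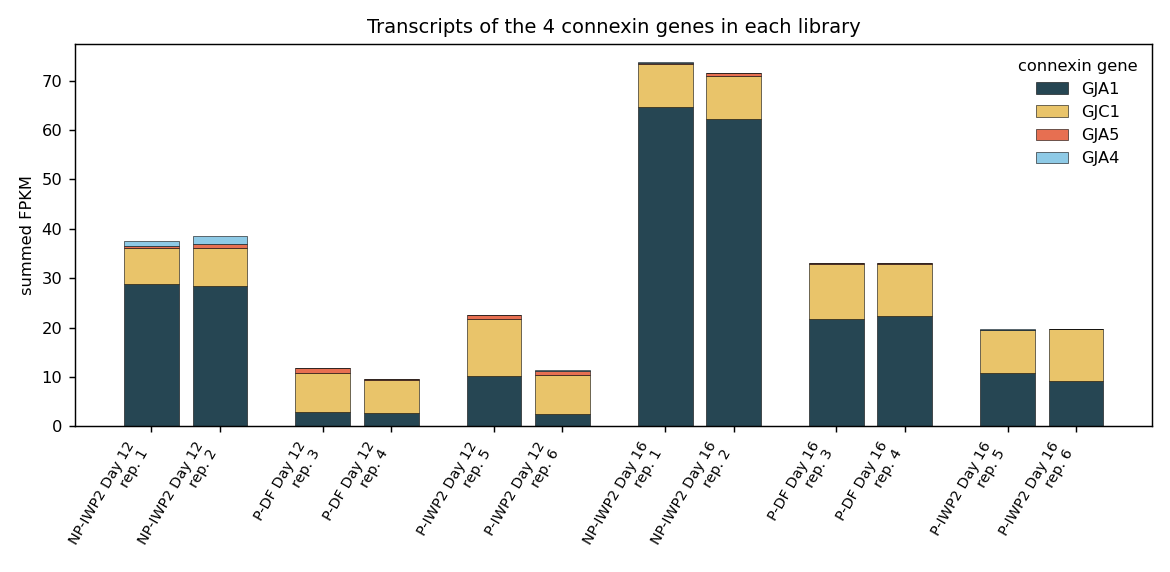
Stacked summed FPKM of GJA1, GJC1, GJA5 and GJA4 in each library. GJA1 fills most of each static bar (73.6% to 87.6%), and GJC1 most of each passaged Day 12 bar (51.6% to 69.5%).

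Of 17 other connexins, 5 passed the filter. GJB1, a connexin of liver, averaged 0.785 ± 0.233 FPKM on Day 12 and 0.9 ± 0.141 on Day 16 in NP-IWP2. It is listed at 0 in 7 of 8 passaged libraries and was called lower in both passaged groups on both days. GJB1 passed the filter through NP-IWP2 cells, where it was high, so a difference from them could only be a fall. GJD2, a connexin of neurons, fell in both on Day 16. It averaged 1.09 ± 0.240 FPKM in NP-IWP2 on Day 16, 0.075 ± 0.0212 in P-DF and 0.095 ± 0.0778 in P-IWP2, with log2FC of -3.68 (SE 0.847, edgeR's adjusted p = 0.0205) and -3.27 (SE 0.805, adjusted p = 0.0247). The 5 had a Day 16 median log2FC of -0.51 for P-DF and -0.22 for P-IWP2. GJA3 (connexin 46, a lens connexin), named after its values were seen, was among the most abundant connexins. It measured 19.39 and 19.41 FPKM in NP-IWP2 on Day 12, 40.95 and 37.50 in P-DF, and 4.47 in replicate 5 and 47.85 in replicate 6 of P-IWP2. On Day 16 it measured 20.35 and 23.12 in NP-IWP2, 27.75 and 25.33 in P-DF and 20.04 and 14.97 in P-IWP2. It exceeded GJA1 in every passaged library except replicate 5 of P-IWP2 Day 12, and in no static library. The Day 12 log2FC in P-DF of 1.10 (SE 0.773) was not called by edgeR with all libraries (adjusted p = 0.434) and was called without replicate 5 (adjusted p = 1.56e-05).

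From Day 12 to Day 16, CACNA2D1 rose in both passaged groups, GJA1 and GJC1 rose in P-DF cells, GJA4 fell in static cells and GJA5 fell in P-IWP2 cells. GJA1 rose by 3.24 in P-DF cells (SE 0.446, edgeR's adjusted p = 0.0028), with log2FC of 1.27 in NP-IWP2 (SE 0.402, adjusted p = 0.135) and 1.13 in P-IWP2 (SE 0.413, adjusted p = 0.0700) not called. CACNA2D1 rose by 1.32 in P-DF (SE 0.110, adjusted p = 0.000649) and 1.15 in P-IWP2 (SE 0.109, adjusted p = 0.000671), and its log2FC of 0.48 in NP-IWP2 was not called by edgeR (SE 0.108, adjusted p = 0.0574). GJC1 rose in P-DF by 0.82 (SE 0.163, adjusted p = 0.0137 from edgeR). GJA4 fell by 3.63 in NP-IWP2 (SE 0.759, edgeR's adjusted p = 0.0477), which was 13.9-fold by summed counts (exact 95% interval 6.10 to 38.9). GJA4 passed the filter only through the Day 12 libraries of this group, so this call too could only be a fall. GJA5 fell by 5.10 in P-IWP2 (SE 1.08, edgeR's adjusted p = 0.0107), which was 50.4-fold by summed counts (13.5 to 423), and without replicate 5 it was -5.33 (adjusted p = 0.00442). Of 12 fits that each left out 1 library, the call was lost in 8 for GJA4 (adjusted p up to 0.359 without NP-IWP2 replicate 2 of Day 12), 3 for GJC1 (up to 0.139 without P-DF replicate 4 of Day 12), 2 for GJA5 (up to 0.0882 without P-IWP2 replicate 6 of Day 16) and none for CACNA2D1 and GJA1. In all, 1 member fell in NP-IWP2 where 1.98% of all genes were called (0.877% higher, 1.1% lower), 3 rose in P-DF where 13.6% were called (6.79% higher, 6.81% lower), and 1 rose and 1 fell in P-IWP2 where 27% were called (12.9% higher, 14.1% lower). Without replicate 5, edgeR also called GJA1 and CACNA2D1 in NP-IWP2 (adjusted p = 5.73e-06 and 0.00558) and GJA1 in P-IWP2, at 2.31 (adjusted p = 6.4e-07), where 17.1%, 29.2% and 23.7% of genes were called in the 3 treatments.

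The change with time was set against that in static cells as an interaction of treatment and day. None of the 8 genes was called with all 12 libraries, where 0.482% of all genes were called for P-DF and 1.84% for P-IWP2 cells. The unadjusted p was under 0.05 for 2 of the 8 and 12.4% of all genes in P-DF cells, and for 3 of the 8 and 20.9% of all genes in P-IWP2 cells. DESeq2 called 2 members in each, beside 1.2% and 3.38% of all genes. The largest was GJA5 in P-IWP2 cells at -5.17 (SE 1.34, edgeR's adjusted p = 0.0822). For CACNA2D1 the interaction was 0.83 in P-DF (SE 0.153, edgeR's adjusted p = 0.0556) and 0.67 in P-IWP2 (SE 0.153, adjusted p = 0.0597). For GJA1 it was 1.97 in P-DF (SE 0.581, adjusted p = 0.198) and -0.14 in P-IWP2 (SE 0.570, adjusted p = 0.915). Without replicate 5, where 7.62% and 7.89% of genes were called, edgeR called CACNA2D1 (adjusted p = 0.00281) and GJA1 (adjusted p = 1.2e-05) for P-DF, and GJA1 at 1.04 (0.00228), CACNA2D1 at 0.75 (0.0109), GJA5 at -5.40 (0.0291) and CACNB2 at -0.58 (0.0494) for P-IWP2. The GJA1 value for P-IWP2 had the opposite sign without replicate 6, at -0.76 (adjusted p = 0.00236).

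Adding IWP2 to passaged cells was compared on Day 16, where 0 of the 19505 genes were called by edgeR, with 1567 (8.03%) at an unadjusted p under 0.05, 2 of them members, and DESeq2 called 110 genes (0.273%), none a member. GJA1 was lower in both P-IWP2 libraries (10.70 and 9.23 FPKM) than in both P-DF libraries (21.66 and 22.35), at a log2FC of -1.10 (SE 0.406, edgeR's adjusted p = 0.537). Without replicate 5 of Day 12 it was called at the same size (adjusted p = 0.000528), where 2.49% of genes were called. GJA5 was 10.9-fold lower by summed counts, 20 against 2 (exact 95% interval 2.65 to 96.4), and was not called (log2FC -3.26, SE 1.21, edgeR's adjusted p = 0.538). The median log2FC of the 8 genes was -0.22.

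Genes that act on these channels and junctions were taken as fixed lists. Of 16 channel partners 15 were tested, and on Day 16 3 rose in P-DF, while 4 rose and 2 fell in P-IWP2 cells, with medians of 0.78 and 0.58. ANK2, ankyrin-B, which anchors channels and exchangers, averaged 1.88 ± 0.247 FPKM in NP-IWP2, 4.13 ± 0.156 after passaging without IWP2 and 3.29 ± 0.382 in P-IWP2, and rose by 1.38 (SE 0.253, edgeR's adjusted p = 0.00836) and 1.09 (SE 0.252, adjusted p = 0.0194). FGF13, an intracellular FGF that binds the sodium channel tail, rose by 0.91 (SE 0.185, adjusted p = 0.0127) and 0.86 (SE 0.185, adjusted p = 0.0148) in edgeR's test, and with all libraries it was the only partner called on Day 12, in P-DF (0.95, SE 0.186, adjusted p = 0.0279). NEDD4L, a ubiquitin ligase of the sodium channel, rose by 0.78 (SE 0.140, edgeR's adjusted p = 0.00747) and 0.58 (SE 0.140, adjusted p = 0.0225). FGF12, the paralog of FGF13, fell by 1.67 in P-IWP2 cells (SE 0.308, edgeR's adjusted p = 0.00802), and its log2FC in P-DF was -0.38 (SE 0.296, adjusted p = 0.410).

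All 11 intercalated disc genes were tested, and on Day 16 2 rose in each passaged group, with medians of 0.36 and 0.37. CDH2, N-cadherin, rose in both, from 104 ± 13.7 FPKM in NP-IWP2 to 158 ± 5.33 in P-DF (log2FC 0.83, SE 0.224, edgeR's adjusted p = 0.0376) and 149 ± 0.276 in P-IWP2 (0.78, SE 0.224, adjusted p = 0.0423). TMEM65, which binds connexin 43 at the disc, rose in P-DF by 0.78 (SE 0.225, edgeR's adjusted p = 0.0459), with 0.29 in P-IWP2 (SE 0.224, adjusted p = 0.393). JUP, plakoglobin, rose in P-IWP2 by 0.39 (SE 0.114, edgeR's adjusted p = 0.0450), with 0.36 in P-DF (SE 0.114, adjusted p = 0.0647). On Day 12 edgeR called none of the 11 with all libraries, and 5 in P-DF and 3 in P-IWP2 without replicate 5.

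Of 13 transcription factors of chamber and conduction genes, 1 rose and 2 fell in P-DF on Day 16, and 1 rose and 3 fell in P-IWP2 cells, with medians of 0.10 and -0.31. HOPX rose in both, from 1.02 ± 0.403 FPKM in NP-IWP2 to 12.7 ± 1.22 in P-DF (log2FC 3.85, SE 0.347, edgeR's adjusted p = 0.000308) and 16.4 ± 0.778 in P-IWP2 (4.27, SE 0.353, adjusted p = 0.000244). ETV1, a factor of fast-conducting atrial and Purkinje cells, fell in both, with log2FC of -0.81 (SE 0.208, edgeR's adjusted p = 0.0307) and -1.55 (SE 0.212, adjusted p = 0.00232). TBX5, which activates GJA5 in the conduction system, averaged 26.3 ± 1.94 FPKM in NP-IWP2, 19.0 ± 1.80 after passaging without IWP2 and 7.66 ± 2.53 in P-IWP2, and fell by 1.52 in P-IWP2 cells (SE 0.300, edgeR's adjusted p = 0.0107). In P-DF its log2FC was -0.24 (SE 0.292, adjusted p = 0.610), and the difference between P-IWP2 and P-DF was not called by edgeR (-1.27, SE 0.299, adjusted p = 0.384). TBX18, a factor of sinus node and epicardium that is also on the epicardial list, averaged 36.8 ± 11.4 FPKM in NP-IWP2 on Day 16 and was 0.05 in both P-DF and 0.01 in both P-IWP2 libraries, with edgeR's adjusted p of 0.0316 and 0.0237.

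The level of each gene was also set against the mean log2 CPM of the 10 cardiomyocyte markers in the same library, as a description. CPM is not scaled by length, so these differences are read between libraries of a gene and not between genes. For CACNA1C the difference was -3.09 to -2.29 log2 units over the 12 libraries, the lowest in replicate 5 of P-IWP2 Day 12. For GJA1 the difference was -3.64 and -3.45 in NP-IWP2 on Day 12 and -2.50 and -2.37 on Day 16. It was -7.31 and -7.35 in P-DF on Day 12, -4.78 and -4.53 in P-DF on Day 16, and -5.83 and -5.98 in P-IWP2 on Day 16. For CACNA2D1 on Day 16 it was -3.63 and -3.43 in NP-IWP2, -4.01 and -3.78 in P-DF, and -4.30 and -4.14 in P-IWP2. The marker mean itself was 10.291 and 9.997 log2 CPM in NP-IWP2 on Day 16, 11.166 and 10.982 in P-DF and 11.196 and 11.252 in P-IWP2. Against the cardiomyocyte markers CACNA2D1 was thus lower in passaged libraries, where its normalized count and the marker mean were both higher. On Day 16 this was shared by 2 members with positive log2FC that edgeR did not call with all libraries. GJC1 was at -4.024 and -3.842 in NP-IWP2 and at -4.745 to -4.262 in passaged libraries, and CACNB2 at -3.976 and -3.785 against -4.701 to -4.122.

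For each of the 8 genes the 2 other genes most like it over the 12 libraries were found among 17133, by the mean absolute difference of centred log2 CPM. The closest of all was CEMIP2 to CACNB2 (0.0737 log2 units), followed by LIMK2 to GJC1 (0.0760), SLF1 to CACNA2D1 (0.0928) and MYO18B, a muscle myosin, to CACNA1C (0.1). The second genes were USP53 for CACNB2 (0.102), AKAP13 for GJC1 (0.0832), ZNF697 for CACNA2D1 (0.0995) and USP2 for CACNA1C (0.109). The genes with larger swings had looser matches. GJA1 was followed best by MFAP4 (0.382), which is 1 of the 8 fibroblast markers used here, and KLF9 (0.444). SCN4B was nearest to CEMIP (0.465) and PPP2R2B (0.484), GJA5 to PTPRQ (0.429) and MEGF10 (0.436), and GJA4 to EVX1 (0.378) and RHBG (0.397). For the 4 close matches the median over all genes was 0.427 to 0.707, and for the others 1.05 to 1.39.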

How the data were processed

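RNA was sequenced from 12 libraries, 2 in each of 6 groups. The authors deposited read counts per gene as whole numbers and FPKM values per gene. Per the submitters' processing notes, reads were trimmed with cutadapt (version 1.9.1), aligned to hg38 with HISAT2 (version 2.0.1) and counted with HTSeq (version 0.6.1), and DESeq2 was used. The deposited FPKM equal count over exon length and total count within 0.005. The labels name a long-read library kit beside this aligner, so the read type is unclear, which bears on values per length. Strand in counting is not given in the sources used here.

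Counts were tested with edgeR (version 4.0.16, R version 4.3.3) by quasi-likelihood, with TMM scaling, filterByExpr (19505 of 61806 genes), all libraries as 6 groups and Benjamini-Hochberg adjustment over all genes tested, at a threshold of 0.05. The SE is the size of the log2FC divided by the root of F. DESeq2 (version 1.42.0), limma (version 3.58.1) on log2(FPKM + pseudocount), other scalings and filters, and fits without each library were alternatives. Descriptions used Python (version 3.11.15) with pandas (version 2.3.3), numpy (version 2.4.6) and scipy (version 1.17.1), and figures matplotlib (version 3.10.9). Ratios of summed counts have exact intervals. log2 CPM used a prior count of 2.

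Groups came from the labels. The same replicate numbers occur on Day 12 and Day 16 of a treatment, but the deviations of same-numbered libraries correlated at 0.0754 (NP-IWP2), -0.0015 (P-DF) and -0.031 (P-IWP2), so the numbers were not taken to pair libraries. No pair of replicates was alike within counting noise, with a chi-square per gene of 3.79 to 137.

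The 8 genes and the lists were chosen with earlier results of these data known. Of each list, up to 3 genes with the lowest p in each passaged group on Day 16 were named, among those called with a mean of at least 1 FPKM in some group. Items withheld from the text are not reported here. CACNA1D and CACNA1G were also followed in each library. CACNA1H, GJA3, GJB1, FGF13 on Day 12 and genes given in counts of 5 or fewer were named after their values were seen.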

Additional observations from a re-analysis of the deposited data

Results flagged for a closer look

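In FPKM, CACNA2D1 in passaged cells lay on opposite sides of the static libraries on the 2 days, and edgeR did not call the Day 12 differences (adjusted p = 0.196 and 0.346). All 4 passaged libraries lay below both static ones on Day 12 and above them on Day 16. The share of all genes with such a reversal was not counted. Scaled by total counts, the Day 16 rise was smaller and was not called. Set against the cardiomyocyte markers, whose own mean was higher in passaged libraries, CACNA2D1 was lower in passaged than in static libraries on Day 16. The difference between the days was 0.83 on the log2 scale in P-DF (SE 0.153, edgeR's adjusted p = 0.0556) and 0.67 in P-IWP2 cells (SE 0.153, adjusted p = 0.0597), neither past the threshold with all 12 libraries, and both were past it without P-IWP2 Day 12 replicate 5 (0.00281 and 0.0109). Both differences share the static libraries.

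GJA5 in P-IWP2 cells lay above both static libraries on Day 12, a difference that edgeR did not call (adjusted p = 0.736), and below them on Day 16. The difference between the days was -5.17 (SE 1.34, edgeR's adjusted p = 0.0822), and -5.40 (adjusted p = 0.0291) without replicate 5. It rests on 2 GJA5 reads in P-IWP2 on Day 16, and the share of all genes with such a reversal was not counted.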

How the results depend on the processing

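Of 606 values of the 8 genes under other settings, 512 kept their direction and side of the threshold, 24 lost the call, 52 gained one and 18 changed sign. With 1 library left out, 809 of 960 kept both, 71 lost the call, 52 gained one and 28 changed sign. None of the 46 values that changed sign was called with all libraries. The cause of these changes was not tested. Not every setting tested all 8 members, and a member not tested could not be called. With its filter limma tested 5, without SCN4B, GJA5 and GJA4. Fits with only the groups compared tested 5 to 8, and DESeq2 gave an adjusted p for 6 to 8. The number of members called is given in the order Day 12 P-DF, Day 16 P-DF, Day 12 P-IWP2, Day 16 P-IWP2, P-IWP2 against P-DF, Day 16 against Day 12 in NP-IWP2, P-DF and P-IWP2, and the interactions for P-DF and P-IWP2. It was 2, 2, 2, 4, 0, 1, 3, 2, 0 and 0 in the main test. The share of all genes called was then 4.01, 15.3, 1.66, 17.1, 0, 1.98, 13.6, 27, 0.482 and 1.84%, and the share of the genes in each fit follows each count below in the same order. DESeq2 called 3, 4, 2, 4, 0, 2, 3, 4, 2 and 2 members (3.87, 8.54, 1.54, 9.48, 0.273, 2.63, 7.79, 12.7, 1.2 and 3.38%). With no filter edgeR called 5, 6, 3, 4, 2, 2, 4, 4, 2 and 2 (7.7, 11.6, 3.79, 12.3, 1.6, 5.07, 9.5, 15.9, 2.79 and 6.77%), and with only the groups compared in the fit 5, 6, 0, 4, 1, 5, 5, 0, 3 and 0 (29.8, 40.1, 0, 29.2, 1.56, 28.3, 37.3, 0, 12.6 and 0.194%). With limma it was 1, 1, 1, 1, 0, 0, 2, 1, 0 and 0 at a pseudocount of 1 FPKM (2.88, 17, 1.32, 21.6, 0.00747, 3.2, 19.3, 39, 0.807 and 2.67%), 1, 0, 0, 1, 0, 0, 2, 1, 0 and 0 at 0.1 (1.97, 17.9, 0.896, 23, 0.0224, 2.42, 20.1, 39.8, 0.508 and 2.54%), and 2, 1, 1, 2, 0, 1, 2, 1, 0 and 1 with no filter (1.99, 5.3, 1.25, 6.08, 0.0372, 1.58, 4.34, 9.68, 0.432 and 0.747%). With total counts as scaling it was 2, 2, 1, 3, 0, 1, 2, 2, 0 and 0 (3.54, 17.6, 1.38, 21.3, 0, 1.91, 16.4, 37.8, 0.415 and 2.82%), and RLE size factors gave the counts of the main test. Total counts moved the genes called on Day 16 from 1051 higher and 1924 lower to 558 and 2870 in P-DF, and from 1395 and 1941 to 733 and 3422 in P-IWP2. Leaving out 1 library in turn gave 0 to 4, 0 to 6, 0 to 4, 0 to 7, 0 to 1, 0 to 3, 2 to 5, 1 to 6, 0 to 2 and 0 to 4, in the same order, with 0.4 to 21.9, 2.59 to 32.4, 0.279 to 15, 4.21 to 34.8, 0 to 2.49, 0.00959 to 17.1, 2.19 to 29.2, 5.8 to 46.9, 0 to 7.62 and 0.0192 to 29.3% of genes. With the replicate number as a block, possible only for the comparisons over time, 0, 3 and 3 members were called in NP-IWP2, P-DF and P-IWP2 and 0 in both interactions (0.79, 9.52, 23.9, 0.0615 and 1.99% of genes), with the call of GJA4 in NP-IWP2 lost (edgeR's adjusted p = 0.0991) and GJA1 in P-IWP2 gained (0.0444). The block changed no other call, and GJA1 in the P-IWP2 interaction was 0.0947, against -0.14 without the block.

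Signs changed as follows, for values that the main test did not call. GJC1 in P-DF on Day 12 was -0.0585 with total counts, -0.0566 with limma at a pseudocount of 1 with or without the filter, and -0.0639 at 0.1. GJC1 over time in P-IWP2 was -0.0179 with total counts, and in the P-IWP2 interaction it was -0.206 with total counts, -0.1645 and -0.1806 with limma. CACNB2 over time in NP-IWP2 was 0.0004 with RLE and 0.0023 with DESeq2. With total counts and with limma without the filter, GJA5 over time in NP-IWP2 was -0.0407 and -0.0046, GJA4 over time in P-IWP2 was -0.1856 and -0.0083, and SCN4B in the P-IWP2 interaction was -0.2336 and -0.2497.
With 1 library left out in turn, signs changed within these ranges, and 3 of the changed values were called in the fit that changed them: CACNA1C in P-IWP2 on Day 12 at 0.625 and GJA1 in the P-IWP2 interaction at 1.04, both without P-IWP2 Day 12 replicate 5 (edgeR's adjusted p = 0.008 and 0.00228), and CACNB2 over time in P-IWP2 at 0.423 without replicate 6 of that group (0.0181). Against static cells on Day 12, GJA5 in P-DF ran from -1.43 to 1.31, GJC1 in P-DF from -0.149 to 0.174, CACNA1C in P-IWP2 from -1.47 to 0.625 and CACNB2 in P-IWP2 from -0.0539 to 0.96. On Day 16 GJA4 in P-IWP2 ran from -4.57 to 0.165, and between P-IWP2 and P-DF GJC1 ran from -0.291 to 0.0549 and GJA4 from -2.48 to 3.81. Over time CACNB2 ran from -0.0682 to 0.0393 and GJA5 from -0.465 to 0.908 in NP-IWP2, SCN4B from -0.356 to 5.66 and GJA5 from -2.22 to 0.492 in P-DF, and CACNB2 from -0.593 to 0.423 and GJA4 from -3.62 to 1.11 in P-IWP2. In the P-DF interaction SCN4B ran from -1.61 to 4.41, GJA5 from -2.31 to 0.421 and GJA4 from -0.138 to 3.15. In the P-IWP2 interaction SCN4B ran from -0.379 to 0.431, CACNB2 from -0.579 to 0.437, GJA1 from -0.758 to 1.04 and GJC1 from -0.0825 to 0.301.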
